A study of Mus musculus with 8 samples.

Results

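The Cyp4a genes of the mouse liver were followed in 6 members, Cyp4a10, Cyp4a12a, Cyp4a12b, Cyp4a14, Cyp4a31 and Cyp4a32. The members were chosen by gene symbol, and all 6 were found among the 24535 RNA-seq symbols and the 25033 Ribo-seq symbols, each with a single entry. All 6 had a mean of at least 1 RPKM (reads scaled by transcript length and by the size of the library) in both assays and so entered every test. Livers came from male C57BL/6 mice at postnatal week 25, which had been given a diet with 45% of its energy from fat since week 8. The HF group received this diet alone, and the HB group received it with 2% (w/v) betaine, a methyl donor formed from choline, in the drinking water. Each group had 2 RNA-seq libraries of polyadenylated mRNA and 2 Ribo-seq libraries of ribosome-protected fragments (RPFs), which remain when RNase removes the mRNA that ribosomes do not cover. The libraries are named HF1, HF2, HB1 and HB2 in both assays. The labels speak of 25 weeks of diet and of pooled RNA preparations, whereas the study's methods speak of 17 weeks and of 2 mice per group, selected for a body weight near the average, and the study describes the libraries of a group as biological repetitions. The sources thus differ on whether each library is a separate animal, and p-values measure the spread between these libraries, which is technical in part if RNA was pooled.

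Cyp4a proteins are cytochrome P450 enzymes of the endoplasmic reticulum that place a hydroxyl group on the terminal (omega) carbon of fatty acids. The omega-hydroxy acids are oxidised by alcohol and aldehyde dehydrogenases to dicarboxylic acids, which peroxisomes then shorten. Cyp4a10 and Cyp4a14 are classical targets of the fatty acid receptor PPAR alpha in the liver, and Cyp4a12a is a male-biased enzyme that responds to androgen and to the male pattern of growth hormone and that also acts on arachidonic acid.

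The 6 genes lie within 323 kb of chromosome 4 and are all protein-coding (GENCODE M21 on GRCm38, the assembly that mm10 names). Cyp4a12a (chr4:115299046-115332815) and Cyp4a12b (chr4:115411624-115439034) lie on the plus strand. Cyp4a14 (chr4:115486200-115496142) is the single member on the minus strand. Cyp4a10 (chr4:115518264-115533649), Cyp4a31 (chr4:115563649-115579015) and Cyp4a32 (chr4:115600969-115621602) follow on the plus strand. By sequence they fall into 3 groups. The coding sequences of Cyp4a12a and Cyp4a12b were 98.5% identical, with 23 of 1524 bases different. Cyp4a10 was 97.2% identical to Cyp4a32 and 96.6% identical to Cyp4a31, and Cyp4a31 and Cyp4a32 were 96.0% identical. All other pairs, including every pair with Cyp4a14, were 75.0% to 80.2% identical.

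The following stretch of exon 2, as long as a footprint of 28 bases, is shown because it is the same in all members of a sequence group. Capitals mark bases that differ from Cyp4a10, and sequences were read 5′ to 3′ on the strand of the gene from GRCm38.
Cyp4a10 (chr4:115519720-115519747, plus strand): gcctacttaactgtctatgaccctgact
Cyp4a31 (chr4:115565100-115565127, plus strand): gcctacttaactgtctatgaccctgact
Cyp4a32 (chr4:115602350-115602377, plus strand): gcctacttaactgtctatgaccctgact
Cyp4a12a (chr4:115300789-115300816, plus strand): gTGCGcAtTCAAgtGtatgaccctgact
Cyp4a12b (chr4:115413344-115413371, plus strand): gTGCGcAtTCAAgtGtatgaccctgact
Cyp4a14 (chr4:115494913-115494940, minus strand): ATACGAGtCCTGCtTtatgaccctgact
A read from here carries no base that tells Cyp4a10 from Cyp4a31 and Cyp4a32, or Cyp4a12a from Cyp4a12b, whereas Cyp4a12a and Cyp4a14 differ from Cyp4a10 at 10 and 13 of the 28 bases.

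A stretch of exon 6 is shown because it differs in all 6 members. Capitals mark bases that differ from Cyp4a10, and in Cyp4a12b those that differ from Cyp4a12a, which is printed in lower case.
Cyp4a10 (chr4:115524761-115524788, plus strand): gaataacctatttcactcccgtgtgagg
Cyp4a31 (chr4:115570222-115570249, plus strand): gaataacctaGttcactcTcgtgtgagg
Cyp4a32 (chr4:115610489-115610516, plus strand): gaataacctatttcactcccgtgtgagA
Cyp4a14 (chr4:115492172-115492199, minus strand): AaaCaacctGACtTTctTTcgCCtgCgg
Cyp4a12a (chr4:115326664-115326691, plus strand): gaacgatctcgttttttcccgtgtgcgg
Cyp4a12b (chr4:115432917-115432944, plus strand): gaacAatctcTtttttCTccgtgtgcgg
Here a single base separates Cyp4a32 from Cyp4a10, 2 bases separate Cyp4a31 from it, and 4 bases separate Cyp4a12b from Cyp4a12a.

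Over whole transcripts, the share of 28-base windows that also occur in another gene was 65.9% for Cyp4a32, 65.3% for Cyp4a12b, 64.6% for Cyp4a12a, 48.4% for Cyp4a10 and 34.6% for Cyp4a31, against 2.92% for Cyp4a14. The RNA-seq read length is 50 bases in the labels and 100 in the study's methods. Windows of 50 bases were shared less, at 43.8% to 49.4% for Cyp4a12a, Cyp4a12b and Cyp4a32, 29.8% for Cyp4a10, 20.6% for Cyp4a31 and 0.235% for Cyp4a14. Of windows of 100 bases, 35.8% were shared for Cyp4a12a, 36.2% for Cyp4a12b, 18.2% for Cyp4a32, 12.2% for Cyp4a10, 7.33% for Cyp4a31 and 0% for Cyp4a14. With 2 mismatches allowed, 91.8% to 99.8% of the 28-base coding windows of the 5 members other than Cyp4a14 matched another member, against 15.9% for Cyp4a14. How the authors placed reads that fit several genes is not given in the sources used here. The values of Cyp4a10, Cyp4a31 and Cyp4a32, and those of Cyp4a12a and Cyp4a12b, are therefore uncertain as single genes, and their sums are given beside them.

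The library totals were 11661207 and 11824128 reads in HF and 22543471 and 18082686 in HB for RNA-seq. The Ribo-seq totals were far lower, at 387980 and 1056546 in HF and 257086 and 141890 in HB. The totals were inferred from the spacing of low RPKM. With them, 100.0% of values above 0 gave a whole number of reads, within 0.005 of a read. Where no annotated transcript length fitted, a length that did was searched for, so this share is fixed in part by the search. At this depth the mRNA of a member rested on 112 to 33937 reads in a library and its RPFs on 4 to 966. All 10 hepatocyte markers were present, with summed mRNA of 50138 to 51178 RPKM in HF and 57799 to 59916 in HB. The library HF1 stood apart in the RNA-seq of the members: it held the highest mRNA of Cyp4a10, Cyp4a14, Cyp4a31 and Cyp4a32 of all 4 libraries, and changes of these members that rest on it are given with and without it.

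In mRNA, the Cyp4a12 pair was higher with betaine and the other 4 members were not. Cyp4a12a was 2.50-fold and Cyp4a12b 4.50-fold higher in HB than in HF by their mean RPKM. Cyp4a32 was 2.45-fold lower, short of the p set for a call. The lower means of Cyp4a10, Cyp4a14 and Cyp4a31 shrank or turned without HF1. Without HF2, where HF1 alone stood for HF, the log2 changes of these 4 ranged from -2.23 to -1.46. A fit with 1 library left out takes its spread from the other group alone, so its p-values and calls do not measure the spread of both groups. A gene was called changed in mRNA at a log2 change beyond 1 with an unadjusted p under 0.001 by limma on log2(RPKM + 1). By this rule 2 of the 6 members were called higher and 0 lower, beside 2.30% of all 10687 tested genes called higher and 6.56% called lower. Of the other 4 members, Cyp4a10 and Cyp4a32 had an unadjusted p under 0.05 (limma), and voom on the recovered reads called 0 members lower and 1 higher, Cyp4a12b. When all libraries were shifted to a common median, 540 genes were called higher and 291 lower in place of 246 and 701, and Cyp4a12a and Cyp4a12b remained the members called. Both HB libraries lay above both HF libraries in 2 members, beside 24.8% of all tested genes, and below them in 2 members, beside 43.3%. The median log2 change of the 6 was -0.77, and that of all tested genes was -0.19.

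Cyp4a12a mRNA stood at 36.8 RPKM in HF1, 24.6 in HF2, 70.5 in HB1 and 82.9 in HB2. Both HB libraries were higher than both HF libraries, and the gap between the groups was wider than the gap within either. The means were 30.7 ± 8.60 RPKM in HF and 76.7 ± 8.74 in HB (SD, n = 2). On the log2 scale the change was 1.32 (SE 0.28), with a Benjamini-Hochberg adjusted p of 0.0106 (limma). Cyp4a12a is the predominant omega hydroxylase of arachidonic acid in the male mouse. Its call was lost without HF2 (log2 change 1.04, adjusted p = 0.0865 by limma) and without HB2 (1.20, adjusted p = 0.00971), but it kept its direction in each. It was also lost with voom on the recovered reads (1.33, adjusted p = 0.0121) and with no filter on RPKM (1.32, adjusted p = 0.0560).

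Cyp4a12b, the neighbour and closest copy of Cyp4a12a, stood at 7.34 RPKM in HF1, 10.5 in HF2, 42.7 in HB1 and 37.4 in HB2. Both HB values were far above both HF values. The means were 8.90 ± 2.20 RPKM in HF and 40.1 ± 3.78 in HB (SD, n = 2). It changed by 2.07 on the log2 scale (SE 0.26), with an adjusted p of 0.00523 (limma). With 1 of the 4 libraries left out, the change ranged from 1.84 to 2.30. Summed, so that the division of reads between the copies plays no part, Cyp4a12a and Cyp4a12b gave 44.1 and 35.04 RPKM in HF and 113.2 and 120.3 in HB. The sum was likewise called, with a log2 change of 1.55 (adjusted p = 0.00560, limma), but not without HF2 (1.38, adjusted p = 0.0176). Cyp4a12b took 16.6% and 29.8% of this sum in HF and 37.7% and 31.1% in HB.

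Cyp4a14, an inducible PPAR alpha target, had the highest mean mRNA of the 6 in both groups. It stood at 1166.4 RPKM in HF1, 234.6 in HF2, 245.6 in HB1 and 250.8 in HB2. HF1 was 4.97-fold above HF2, while HF2 lay just below both HB libraries, so the groups overlapped. Between the groups the log2 change was -1.07 (SE 0.59, adjusted p = 0.197 by limma, 95% interval -2.38 to 0.24). Without HF1 it was 0.081, and without HF2, where HF1 alone stood for HF, it was -2.23.

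Cyp4a10, the other classical PPAR alpha target, stood at 693.1 RPKM in HF1, 276.8 in HF2, 200.6 in HB1 and 260.9 in HB2. HF1 was again the highest, at 2.50-fold HF2, and both HB values lay below HF2, HB2 by a small margin and HB1 by a wider one. The log2 change of -0.93 (SE 0.41) had an adjusted p of 0.114 (limma), and it was -0.27 without HF1 and -1.60 without HF2. Cyp4a31 stood at 14.8 RPKM in HF1, 3.87 in HF2, 3.61 in HB1 and 6.19 in HB2. It was the least abundant member in HB, and its groups overlapped. Its log2 change of -0.61 (SE 0.48, adjusted p = 0.364, limma) turned to 0.24 without HF1 and was -1.46 without HF2.

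Cyp4a32 stood at 62.4 RPKM in HF1, 39.8 in HF2, 21.1 in HB1 and 20.6 in HB2. Both HB libraries were below both HF libraries, and HF1 was 1.57-fold HF2. Its log2 change of -1.22 (SE 0.28) missed the unadjusted threshold for a call but had an adjusted p of 0.0139 (limma). With an adjusted p under 0.05 in place of the unadjusted p, 1 member was thus called lower, beside 12.7% of all tested genes, and the same 2 members higher, beside 5.01%. Without HF1 the log2 change of Cyp4a32 was -0.90, and without HF2 it was -1.54. Summed over Cyp4a10, Cyp4a31 and Cyp4a32, mRNA was 770.4 and 320.5 RPKM in HF and 225.3 and 287.7 in HB, and the log2 change of the sum was -0.96 (adjusted p = 0.0982, limma). Without HF1 it was -0.33, and without HF2 it was -1.59.

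**Figure D1:**
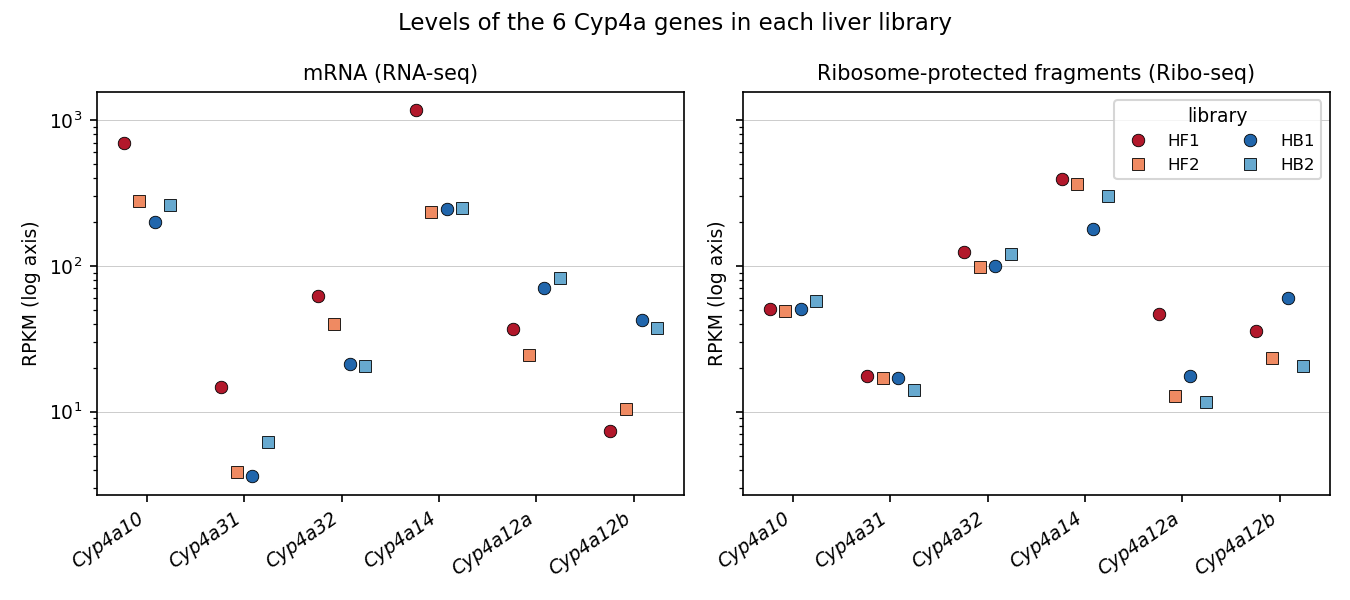
RPKM of each gene on a log axis in mRNA (left) and RPFs (right); each point is 1 library, circles for libraries numbered 1 and squares for those numbered 2, red and orange for HF and blue for HB. In mRNA both HB points of Cyp4a12a and Cyp4a12b lie above the HF points, and HF1 is the highest point of the other 4 genes, up to 1166.4 RPKM in Cyp4a14. In RPFs no gene has both HB points above both HF points.

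**Figure D2:**
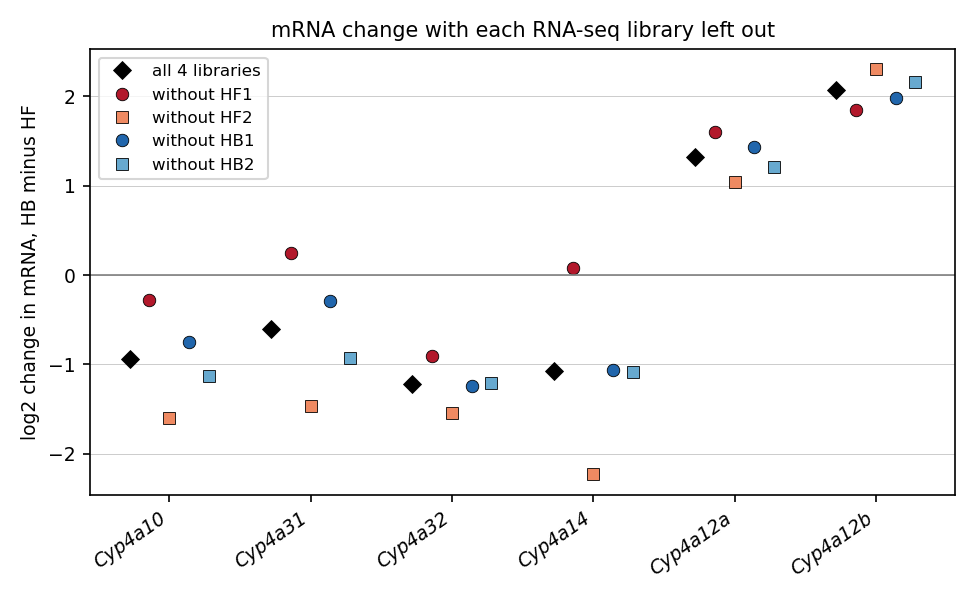
Log2 change in mRNA (HB minus HF, on log2(RPKM + 1)) of each gene with all 4 RNA-seq libraries (diamonds) and with each library left out. Without HF1, Cyp4a14 moves from -1.07 to 0.081 and Cyp4a31 from -0.61 to 0.24, while Cyp4a12a and Cyp4a12b stay above 1.

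The order of mRNA levels per length differed between the groups below the top pair. In HF, Cyp4a14 and Cyp4a10 overlapped at the top, followed by Cyp4a32, then Cyp4a12a, then Cyp4a31 and Cyp4a12b, which overlapped. In HB, Cyp4a14 and Cyp4a10 overlapped at the top again and were followed by Cyp4a12a, Cyp4a12b, Cyp4a32 and Cyp4a31, with no overlap between these neighbours. The Cyp4a12 pair thus stood above Cyp4a32 in HB and below it in HF. Cyp4a12a made up 1.86% and 4.17% of the summed mRNA of the 6 in HF and 12.1% and 12.6% in HB. The 6 genes summed to 1980.9 and 590.1 RPKM in HF and 584.2 and 658.8 in HB.

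In RPFs no member was called on the deposited scaling, and the size and sign of the changes moved with the scaling of the libraries. A gene was called in RPFs at a log2 change beyond 1 with an unadjusted p under 0.05, and 0 of the 6 members were called in either direction, beside 1.58% of all 11190 tested genes called higher and 7.86% called lower. The smallest unadjusted p of a member was 0.0988 (Cyp4a14, adjusted p = 0.562, limma), so 0 members had a p under 0.05 by limma. Voom on the recovered reads also called 0 members, although Cyp4a14 had an unadjusted p under 0.05 there (log2 change -0.75, adjusted p = 0.341). Across all genes 1122 had an unadjusted p under 0.05 and 0 had an adjusted p under 0.05 by limma, against 82 with an adjusted p under 0.05 by voom. A shift to a common median gave 349 genes called higher and 421 lower in place of 177 and 879, and still 0 members. With all libraries rescaled to the same summed RPKM, 42 genes were called higher and 2816 lower, with 1 member lower. On that common sum the log2 RPF changes were -0.75 for Cyp4a10, -1.57 for Cyp4a12a, -0.56 for Cyp4a12b, -1.58 for Cyp4a14, -0.97 for Cyp4a31 and -0.88 for Cyp4a32, and Cyp4a14 was the member called. Both HB libraries lay above both HF libraries in 0 members, beside 9.07% of all tested genes, and below them in 1, beside 33.2%. The median log2 change was -0.08 for the 6 and -0.43 for all tested genes. At 4 to 966 reads per value, changes of the size seen in mRNA could be missed for some members, and the intervals are given for each.

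Cyp4a14 had the highest RPF level of the 6 in every library, at 391.5 RPKM in HF1, 366.5 in HF2, 177.7 in HB1 and 302.2 in HB2. It was the single member whose HB libraries were both below the HF libraries. Unlike in mRNA, HF1 and HF2 were close, with a ratio of 1.07. The log2 change was -0.71 (SE 0.35), with a 95% interval of -1.60 to 0.19. It was called without HB2 (-1.09, adjusted p = 0.235, limma) and on a common sum (-1.58, adjusted p = 0.192), and not with any other library left out. It was -0.32 without HB1, -0.38 on a common median and -0.49 on a common upper quartile.

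The RPFs of Cyp4a12a and Cyp4a12b overlapped between the groups, unlike their mRNA. Cyp4a12a had 46.8 RPKM in HF1, 12.9 in HF2, 17.7 in HB1 and 11.6 in HB2, on 44, 33, 11 and 4 reads. HF1 was the highest library, and HF2 lay between the HB libraries. The 95% exact binomial interval of HB2 ran from 3.17 to 29.8 RPKM, and such intervals cover counting error only. The log2 change was -0.75 (95% interval -2.55 to 1.06). It was 0.14 without HF1 (-2.19 to 2.48) and -0.47 without HB2 (-3.19 to 2.26). The difference between its RPF and mRNA changes is the TE change given with TE.

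Cyp4a12b had RPFs of 35.5 RPKM in HF1, 23.3 in HF2, 60.1 in HB1 and 20.6 in HB2, on 33, 59, 37 and 7 reads. HB1 was the highest library and HB2 the lowest, so the HB values spanned both HF values. The log2 change of 0.29 had a 95% interval of -1.27 to 1.85. It was 1.04 without HB2 and -0.46 without HB1, with no call in either. Summed, the pair gave 82.3 and 36.2 RPKM in HF and 77.8 and 32.2 in HB, with a log2 change of -0.12, which was 0.50 without HB2 and -0.74 without HB1.

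The deposited RPFs of Cyp4a10, Cyp4a31 and Cyp4a32 spanned a narrow range over the 4 libraries. Cyp4a10 had 50.7 and 49.0 RPKM in HF and 50.3 and 57.4 in HB. Cyp4a31 had 17.5 and 16.98 RPKM in HF and 17.1 and 14.0 in HB. Cyp4a32 had 123.9 and 98.9 RPKM in HF and 99.6 and 121.5 in HB. The highest library was at most 1.25-fold the lowest for each gene, and the groups overlapped. The 95% intervals of the log2 change were -0.64 to 0.85 for Cyp4a10, -1.14 to 0.85 for Cyp4a31 and -0.76 to 0.74 for Cyp4a32. In Ribo-seq, HF1 was 1.03-fold HF2 for Cyp4a10 and Cyp4a31 and 1.25-fold for Cyp4a32, beside 2.50-fold, 3.83-fold and 1.57-fold in RNA-seq, and whether the HF1 libraries of both assays come from the same animal is not stated.

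The order of RPF levels was Cyp4a14, then Cyp4a32, then Cyp4a10 in both groups, with no overlap between these neighbours. In HF, Cyp4a12a and Cyp4a12b followed and overlapped, and Cyp4a31 had the lowest mean but lay within the range of Cyp4a12a, which was the lowest member in HF2. In HB, Cyp4a10 and Cyp4a12b overlapped, and Cyp4a31 and Cyp4a12a overlapped at the lowest level.

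The division of reads among the close copies differed between the assays. Of the summed mRNA of Cyp4a10, Cyp4a31 and Cyp4a32, Cyp4a10 took 86.4% to 90.7% in the 4 libraries and Cyp4a32 took 7.15% to 12.4%. Of their summed RPFs, Cyp4a10 took 26.4% to 30.2% and Cyp4a32 took 59.6% to 64.5%. In mRNA Cyp4a10 was thus the major copy in every library, and in RPFs Cyp4a32 was. The sequences above show how little separates these genes, and the part of read placement in this difference was not tested. In the other group, Cyp4a12b took 16.6% to 37.7% of the mRNA and 43.1% to 77.3% of the RPFs of the pair, with no overlap between the assays.

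**Figure D3:**
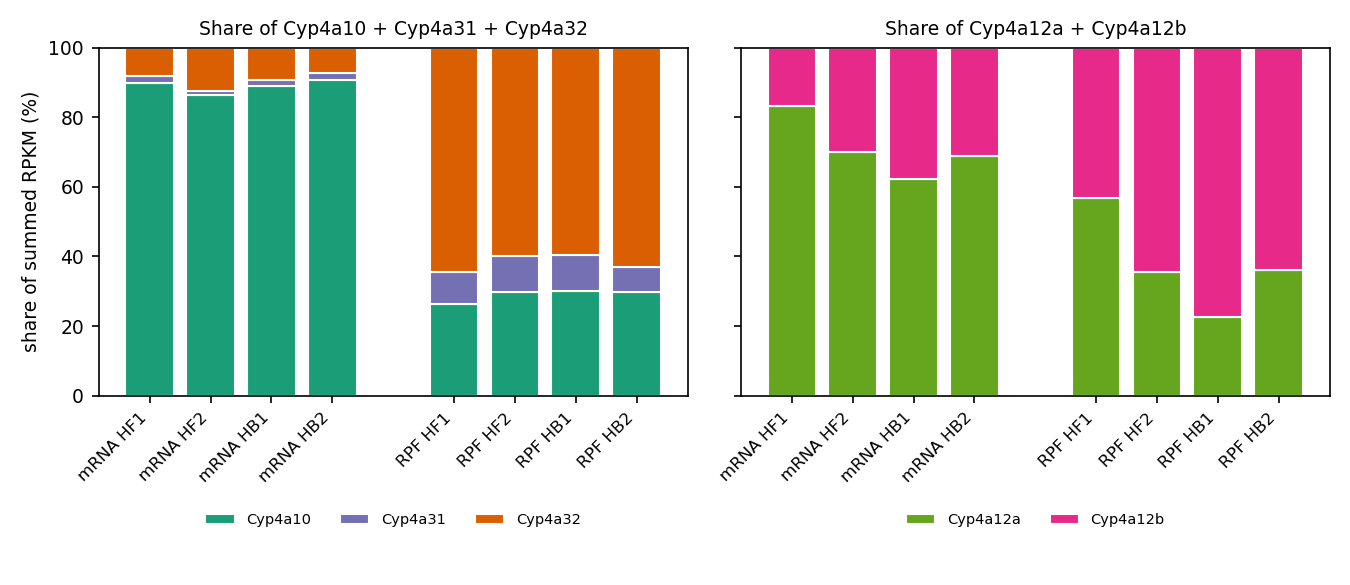
Share of summed RPKM (percent) taken by each copy within Cyp4a10, Cyp4a31 and Cyp4a32 (left) and within Cyp4a12a and Cyp4a12b (right); each bar is 1 library, mRNA on the left and RPFs on the right of each panel. Cyp4a10 fills 86.4% to 90.7% of the mRNA bars and 26.4% to 30.2% of the RPF bars.

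Translation efficiency (TE) is the RPKM of RPFs divided by that of mRNA, taken here between libraries of both assays that share a group and a number. By its means it was lower in HB for the Cyp4a12 pair, higher in HB for Cyp4a10, Cyp4a31 and Cyp4a32, and 1.02-fold that of HF for Cyp4a14, and Cyp4a12a alone passed the thresholds of a log2 change beyond 2 with an unadjusted p under 0.05. TE holds the mRNA of the same gene in its denominator, so it is no separate measure from the mRNA results above. Thus 1 of 6 members was called lower in TE and 0 higher, beside 4.78% and 1.62% of all 9455 tested genes. Both HB libraries lay below both HF libraries in 2 members, beside 31.7% of all tested genes, and above them in 2 members, beside 14.0%. The median TE of all tested genes was 1.07 and 1.02 in HF and 0.877 and 0.739 in HB. The median log2 change was 0.42 for the 6 members and -0.35 for all tested genes.

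Cyp4a12a had a TE of 1.27 in HF1, 0.525 in HF2, 0.251 in HB1 and 0.1405 in HB2. Both HB values were below both HF values. The log2 TE change was -2.06 (SE 0.63), with an adjusted p of 0.355 (limma), and no gene of the 9455 reached an adjusted p under 0.05, while 1168 had an unadjusted p under 0.05 and voom gave 14 with an adjusted p under 0.05. The call was lost without HF1 (-1.45) and without HB2 (-1.67). Cyp4a12b had a TE of 4.84 in HF1, 2.23 in HF2, 1.41 in HB1 and 0.551 in HB2, again with no overlap. Its log2 change of -1.78 (SE 0.68, adjusted p = 0.395, limma) fell short of the size set for a call. With a library left out, it ranged from -2.44 (without HB1) to -1.13 (without HB2). The summed pair had a TE of 1.87 and 1.03 in HF and 0.687 and 0.268 in HB, with a log2 change of -1.67 (adjusted p = 0.393), also short of that size, so the call on Cyp4a12a did not hold for the sum. The log2 TE change of the sum was -2.33 without HB1, -2.09 without HF2, -1.25 without HF1 and -1.003 without HB2. On a common sum, 51 genes were called higher and 1341 lower in TE in place of 153 and 452, with both members of the pair called (-2.84 and -2.58).

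Cyp4a10 had the lowest TE of the 6 in HF, at 0.0731 in HF1 and 0.177 in HF2, beside 0.251 in HB1 and 0.220 in HB2. All 4 values lay below the library medians, and both HB values were above both HF values. The log2 change was 1.04 (SE 0.55, adjusted p = 0.490, limma), and it was 0.41 without HF1, 1.68 without HF2 and 0.23 on a common sum. Cyp4a32 had a TE of 1.99 in HF1, 2.48 in HF2, 4.72 in HB1 and 5.91 in HB2, all above the library medians. The HB values were again above the HF values, with a log2 change of 1.21 (SE 0.45, adjusted p = 0.389, limma), which was 0.39 on a common sum. Cyp4a10 and Cyp4a32 thus stood on opposite sides of the library medians in all 4 libraries, and for the summed group of Cyp4a10, Cyp4a31 and Cyp4a32 TE was 0.249 and 0.514 in HF and 0.741 and 0.671 in HB. The log2 change of this summed TE was 0.98, and it was 0.45 without HF1 and 1.50 without HF2.

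Cyp4a14 had a TE of 0.336 in HF1, 1.56 in HF2, 0.724 in HB1 and 1.20 in HB2. The HF values were the lowest and the highest of the 4. Its log2 change of 0.37 (95% interval -1.55 to 2.28) became -0.74 without HF1. Cyp4a31 had a TE of 1.18 in HF1, 4.39 in HF2, 4.73 in HB1 and 2.27 in HB2. Here HF1 was the lowest, and its log2 change of 0.46 (95% interval -1.46 to 2.39) became -0.37 without HF1.

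**Figure D4:**
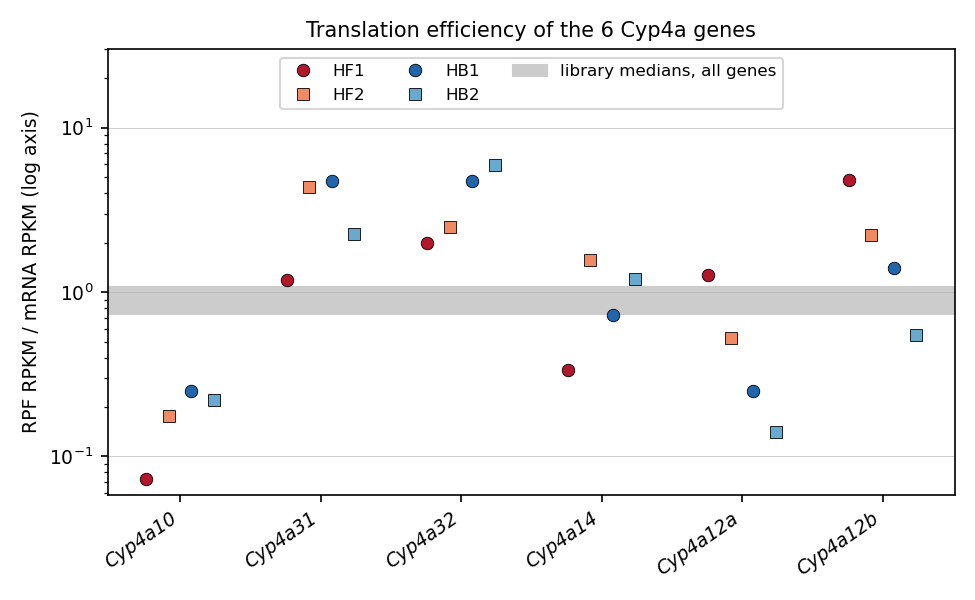
TE (RPKM of RPFs over RPKM of mRNA, log axis) of each gene in each pair of libraries; points as in the plot of levels, and the grey band spans the medians of all genes in the 4 libraries, 0.739 to 1.07. All 4 points of Cyp4a10 lie below the band and all 4 of Cyp4a32 above it, and the HB points of Cyp4a12a and Cyp4a12b lie below their HF points.

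**Figure D5:**
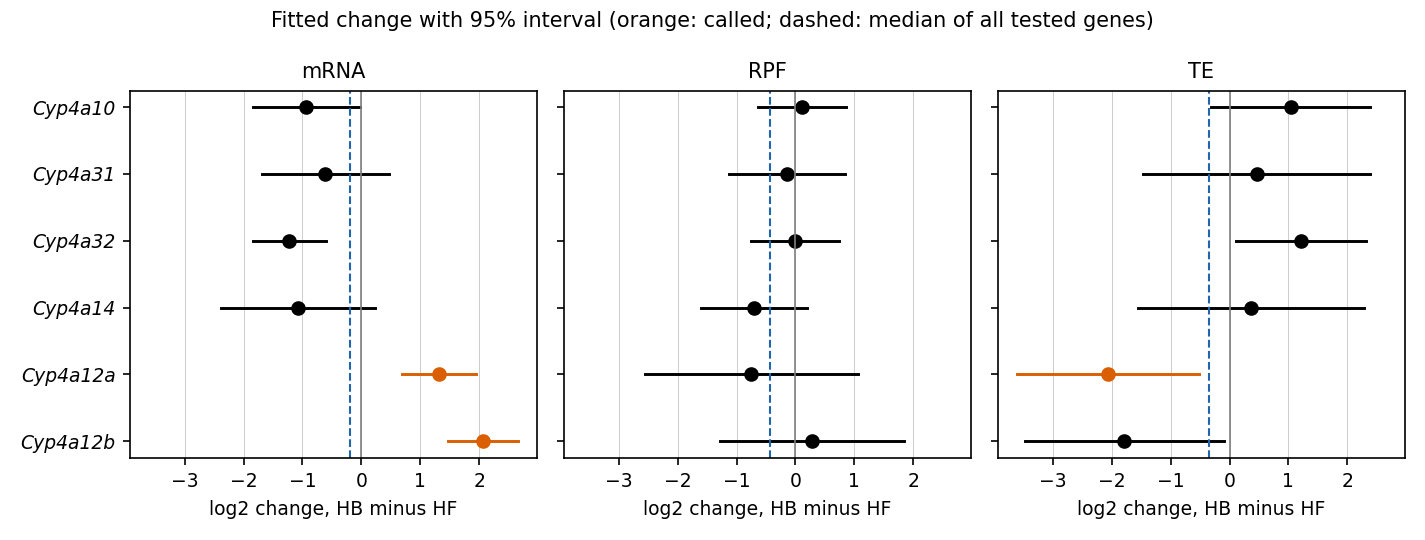
Fitted log2 change (HB minus HF) of each gene in mRNA, RPFs and TE; dots are estimates, lines 95% intervals from limma, orange marks a called change and the dashed line the median of all tested genes. The calls are Cyp4a12a (1.32) and Cyp4a12b (2.07) in mRNA and Cyp4a12a (-2.06) in TE.

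The mRNA pattern of Cyp4a14, with a single high library, was most like that of Ccdc151, Egr1 and Cyp2b10 among 10681 other tested genes over the 4 RNA-seq libraries. The measure was the Euclidean distance between log2(RPKM + 1) centred per gene, and it was 0.207, 0.371 and 0.397. Egr1, an immediate early transcription factor, stood at 10.1 RPKM in HF1 and at 1.07 to 1.89 in the other libraries. Cyp2b10, a target of the receptor CAR, stood at 18.4 RPKM in HF1 and at 3.19 to 4.55 in the others. Nearest to Cyp4a12a were Apoa4 (0.135), Gstm2 (0.242) and Ethe1 (0.265). Apoa4, an apolipoprotein of triglyceride-rich particles, stood at 364.2 and 232.1 RPKM in HF and 642.9 and 709.7 in HB.

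Of the other entries of the Cyp4a cluster, Cyp4b1 alone passed the filter in mRNA, at 2.38 and 6.83 RPKM in HF and 5.50 and 3.67 in HB, with no call in any measure. Cyp4a30b was listed at 0 in all 4 RNA-seq libraries and had RPFs of 13.5, 14.3, 10.2 and 9.23 RPKM in HF1, HF2, HB1 and HB2. Cyp4x1, at the edge of the cluster, was likewise listed at 0 in RNA-seq, with RPFs of 60.2 and 44.9 RPKM in HF and 6.83 and 15.9 in HB. Its RPFs were called lower in HB (log2 change -2.20, adjusted p = 0.493, limma), on 298 reads in all. An end of its annotated span overlaps an antisense gene, the counting is not stated to use strand, and the part of that overlap in these values was not tested. Cyp4a29 had RPFs of 0 to 5.08 RPKM and was not called.

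Beside the gene lists that follow, the shares of all tested genes called higher and lower were 2.30% and 6.56% in mRNA. They were 1.58% and 7.86% in RPFs and 1.62% and 4.78% in TE. The Cyp4f and Cyp4v3 genes encode further fatty acid hydroxylases of the P450 family. In mRNA, 0 of 6 tested were called higher and 1 lower, with a median log2 change of -0.43. The gene called was Cyp4f15, at 251.6 and 226.3 RPKM in HF and 79.8 and 111.9 in HB (log2 change -1.33, adjusted p = 0.0102, limma), while its RPFs were 30.2 and 31.9 RPKM in HF and 34.6 and 36.3 in HB. Cyp4f17 passed the thresholds as lower in RPFs and TE, on 11 reads in all, with 7.04 and 4.52 RPKM of RPFs in HF and a listed 0 in both HB libraries. Since 3 reads would give 7.96 RPKM in HB1 and 14.4 in HB2, a difference was not detectable at this depth and no fold is given.

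Of 4 genes listed as electron donors of P450 enzymes, 1 was called higher in mRNA and 0 lower. The gene called was Cyb5b, which encodes the cytochrome b5 of the outer mitochondrial membrane and not the microsomal form (log2 change 1.69, adjusted p = 0.00564, limma). Its mRNA stood at 28.4 and 26.9 RPKM in HF and 113.6 and 73.8 in HB. Cyb5a, the microsomal cytochrome b5, had a log2 change of 0.20 (adjusted p = 0.636, limma) and was not called. Por, the reductase that hands electrons to every microsomal P450, stood at 390.6 and 279.9 RPKM in HF and 217.1 and 326.6 in HB, with overlapping groups. In RPFs and TE, 0 of the 4 were called.

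Of the 9 alcohol and aldehyde dehydrogenases listed for the steps after omega hydroxylation, 1 was called higher and 0 lower in mRNA, with a median log2 change of 1.11. The gene called was Adh5 (log2 change 1.30, adjusted p = 0.00897, limma), at 109.3 and 112.9 RPKM in HF and 296.7 and 253.3 in HB. With an adjusted p under 0.05 in place of the unadjusted p, 6 of the 9 were called higher and 0 lower. Of all tested genes, 5.01% were called higher and 12.7% lower by that rule. The RPFs of 8 tested had a median log2 change of 0.03, and Adh7 passed the thresholds as lower in RPFs and TE. It had 11.2 and 8.65 RPKM of RPFs in HF and a listed 0 in both HB libraries, where 3 reads would give 5.61 and 10.2 RPKM, and no fold is given. Aldh1b1 was also called lower in TE (-2.24).

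Peroxisomal oxidation of dicarboxylic acids was represented by 16 genes. In mRNA 1 was called higher and 0 lower, with a median log2 change of 0.40, and in RPFs 0 were called, with a median of -0.50. By an adjusted p under 0.05 (limma), 3 of the 16 were called higher in mRNA and 0 lower, beside 5.01% and 12.7% of all tested genes. Ehhadh, the bifunctional enzyme that acts on dicarboxylic acids, was at 31.8 and 33.7 RPKM in HF and 152.6 and 92.9 in HB (log2 change 1.83, adjusted p = 0.00526, limma), and it was the single gene called lower in TE (-2.16).

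PPAR alpha and the other receptors and binding proteins listed upstream of Cyp4a10 and Cyp4a14 had 0 of 10 called in mRNA in either direction, with a median log2 change of -0.39. With an adjusted p under 0.05 (limma), 2 were called lower, beside 12.7% of all tested genes. They were the nuclear receptors Nr1i3 (-1.50) and Nr0b2 (-1.39), which are named after their values were seen. Ppara itself stood at 44.4 and 50.6 RPKM in HF and 35.1 and 36.9 in HB. The corepressor Ncor1 was called lower in RPFs (-1.09). Of 20 other PPAR alpha targets, 2 were called higher and 0 lower in mRNA, with a median log2 change of 0.15. These were the lipid droplet protein Plin2 (2.28) and malic enzyme Me1 (2.50), both of which were called lower in TE (-2.15 and -2.59). By an adjusted p under 0.05 (limma), 2 of the 20 were called higher in mRNA and 1 lower, beside 5.01% and 12.7% of all tested genes. In RPFs, the mitochondrial carrier Ucp2 was called higher (2.19, and 2.19 in TE), and the pantetheinase Vnn1 (-1.87) was called lower. The kinase Pdk4 also passed the thresholds as lower in RPFs, on 22 reads in all, with 4.48 and 4.11 RPKM in HF and 1.13 RPKM and a listed 0 in HB, and no fold is given.

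Cyp4a12a is male-biased, and 20 further male-biased liver genes were listed beside it. Of 18 tested in mRNA, 0 were called higher and 2 lower, and the median log2 change was 0.62. The genes called were Selenbp2 (-1.46) and the repressor Bcl6 (-1.59), and both passed the thresholds as higher in TE. The RPFs behind these TE values rested on 6 reads in all for Selenbp2, for which no TE fold is given, and on 48 for Bcl6 (2.28). With an adjusted p under 0.05 (limma), 4 of the 18 were called higher and 2 lower, beside 5.01% and 12.7% of all tested genes. Those higher were Hsd3b5 (2.07), Nudt7 (1.82), Serpina12 (1.45) and Cyp2u1 (1.18), named after their values were seen. Of the 18, 14 had a positive log2 change in mRNA and 4 a negative one. Hsd3b5 passed the thresholds as higher in RPFs on 6 reads in all, with 1.60 RPKM and a listed 0 in HF and 9.68 and 4.39 RPKM in HB, and no fold is given. Of 9 female-biased liver genes tested in mRNA, 0 were called higher and 2 lower, with a median of -0.95. These were Cyp2b13 (-2.28), which was called higher in TE (3.07, on 39 RPF reads in all), and Cyp2a22 (-1.76). Of 9 genes of growth hormone and androgen signalling, 1 was called higher and 1 lower in mRNA, with a median of -0.42. By an adjusted p under 0.05 (limma), 1 of these 9 was called higher and 2 lower. Onecut1, a liver transcription factor, stood at 1.13 and 0.464 RPKM in HF and 25.3 and 7.01 in HB (log2 change 3.04, adjusted p = 0.00526, limma). Igf1, the hormone that growth hormone induces in liver, stood at 198.5 and 157.8 RPKM in HF and 71.2 and 73.7 in HB (-1.28, adjusted p = 0.00931).

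Summed markers of other cell types also differed between the groups in mRNA. In bulk liver, fewer cells of a type and less RNA per cell cannot be told apart. Summed mRNA of 10 Kupffer cell and macrophage markers was 168.5 to 206.7 RPKM in HF and 231.2 to 242.2 in HB. That of 8 stellate cell and fibroblast markers was 38.3 to 41.2 and 48.2 to 76.9, and that of 8 endothelial markers was 105.4 to 106.3 and 75.8 to 94.7. Gene by gene, 2 of 7 tested stellate markers rose in mRNA and 5 fell, with a median log2 change of -0.02. The median was 0.43 for the macrophage and -0.36 for the endothelial list. None of these 3 lists had a gene called in mRNA. In RPFs, Pecam1 (-1.74, on 45 reads in all) and Stab2 (-1.25, on 233) of the endothelial list were called lower. Egfl7 of that list passed the thresholds as lower on 22 reads, with a listed 0 in HB2. Cd68 of the macrophage list did so in RPFs and TE on 5 reads, with a listed 0 in both HB libraries. The median log2 RPF change was -1.27 for the endothelial, -0.71 for the macrophage and -1.04 for the stellate list. The 6 cholangiocyte markers summed to 26.2 to 31.9 and 15.7 to 26.0 RPKM, the 6 lymphocyte markers to 6.499 to 8.08 and 3.15 to 3.19, and the 5 adipocyte markers to 9.63 to 12.1 and 22.4 to 23.4. The 5 red blood cell markers summed to 523.1 to 674.9 RPKM in HF and 738.3 to 2248.5 in HB, with Hbb-bs called higher (2.51, adjusted p = 0.00526, limma). No marker of any list was listed at 0 in all 4 RNA-seq libraries, and in Ribo-seq the markers listed at 0 in all 4 were Krt7, Epcam, Cd79a, Ms4a1, Adipoq, Lep, Plin1 and Retn. In RPFs, the summed stellate, endothelial and cholangiocyte markers were lower in both HB libraries, as were Cyp4a14 and 33.2% of all tested genes. They stood at 137.8 to 159.9, 135.4 to 169.1 and 14.4 to 15.2 RPKM in HF. In HB they stood at 96.4 to 106.7, 71.9 to 132.7 and 0 to 9.86. The RPF sums of the other marker lists overlapped between the groups. The part of these cell types in the member results was not tested.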

How the data were processed

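The authors used FANSe2 to place the reads of both assays on mm10 and deposited 1 RPKM value per gene for each library, without pooling replicates. The submitters' processing notes also name edgeR, a count test that was not applied to these RPKM. Whole reads and the transcript length behind each RPKM were recovered from steps of 1 read; the recovered reads summed to 94.5% to 96.0% of the library totals in RNA-seq and 97.9% to 98.6% in Ribo-seq. The lengths were 1914 to 2509 bases for the members, longer than their coding sequences of 1521 to 1527 bases, and were equal in both assays except for Cyp4a31 (2447 in RNA-seq and 2509 in Ribo-seq).

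HB was compared with HF in R 4.3.3 by limma 3.58.1 (linear model on the group, empirical Bayes with a variance trend, two-sided) on log2(RPKM + 1) of genes whose mean RPKM was 1 or more. The log2 changes understate those of genes with low RPKM. The TE fit used the log2 ratio of RPF to mRNA RPKM with 1 added to each; printed TE values have no added constant. Call thresholds follow the study's methods, and Benjamini-Hochberg adjusted p-values span all tested genes. In RNA-seq, 4 of 24539 entries repeat a symbol and were left out. Coding sequences were aligned with mafft 7.526. The members, gene lists and tests were chosen with earlier results of these data known. Named are all members, every called gene of the lists (at most the 4 with the smallest p per list and measure), filtered entries of the gene cluster, and the 3 genes nearest in pattern to Cyp4a14 and to Cyp4a12a. Others named beside them (Por, Cyb5a, Ppara, Nr1i3, Nr0b2, and the male-biased genes higher in mRNA by an adjusted p) were chosen after their values were seen. Alternatives were other pseudocounts, filters and scalings, an adjusted p, no variance trend, a replicate block, left-out libraries, summed paralogs, voom on recovered reads, and for TE an interaction model and crossed numbers. A crossed block and the sums with each library left out were added after seeing the data. The fits were run on simulated data with a spread and large changes set in advance, which checks the code and not how the fits perform at the spread of these libraries.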

Additional observations from a re-analysis of the deposited data

How the results depend on the processing

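Over all alternatives run, the log2 change in mRNA of Cyp4a12a ranged from 1.04 to 1.60 and that of Cyp4a12b from 1.55 to 2.34, and that of Cyp4a32 from -1.54 to -0.90, with 1 direction each. Of the 6 members in mRNA, 1 rather than 2 was called higher without a filter and with voom, and 1 to 2 with a library left out (1 without HF replicate 2 and 1 without HB replicate 2, where Cyp4a12a was lost). The count called lower was 0; it was 1 (Cyp4a32) with an adjusted p, and 0 to 4 with a library left out (4 without HF replicate 2). In RPFs the count called lower was 0; it was 1 (Cyp4a14) on a common sum and 0 to 1 with a library left out (1 without HB replicate 2). In TE the count called lower was 1; it was 0 with an adjusted p, a pseudocount of 5, summed paralogs and voom, 2 on a common sum, and 0 to 2 with a library left out (0 without HF replicate 1 or HB replicate 2, 2 without HB replicate 1). The cause was not tested.

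Directions turned as follows. In mRNA, with a library left out, Cyp4a14 ranged from -2.23 (without HF replicate 2) to 0.081 and Cyp4a31 from -1.46 (without HF replicate 2) to 0.24 (both without HF replicate 1). In RPFs, on a common sum, Cyp4a10 was -0.75 and Cyp4a12b -0.56; after a shift to a common median Cyp4a31 was 0.18 and Cyp4a32 0.32; on a common upper quartile they were 0.064 and 0.21. Summed over paralogs, the RPF change was -0.12 for Cyp4a12b and 0.013 for Cyp4a31 and Cyp4a32. Of the sums with a library left out, an alternative chosen after seeing the data, the RPF change ranged from -0.74 to 0.50 for Cyp4a12a with Cyp4a12b and from -0.097 to 0.12 for Cyp4a10 with Cyp4a31 and Cyp4a32. With libraries left out, RPF changes turned for Cyp4a12a (-1.64 without HF replicate 2 to 0.14 without HF replicate 1), Cyp4a12b (-0.46 without HB replicate 1 to 1.04 without HB replicate 2) and Cyp4a32 (-0.17 without HF replicate 2 to 0.15 without HF replicate 1). In TE, Cyp4a14 and Cyp4a31 were -0.46 and -0.32 on a common sum and ranged from -0.74 to 1.47 and from -0.37 to 1.29 with a library left out. Scaling to a common upper quartile called 369 genes higher and 464 lower in mRNA and 259 and 718 in RPFs, and voom called 442 and 704 in RPFs and 499 and 286 in TE, in place of 153 and 452. Without a filter, 77 genes were called higher and 188 lower in mRNA, and with a pseudocount of 5 the numbers in TE were 46 and 79. With a library left out, higher and lower calls over all genes numbered 169 to 503 and 535 to 1055 in mRNA, 59 to 570 and 413 to 2517 in RPFs, and 59 to 468 and 133 to 1250 in TE. The common median moved the median log2 change of all genes to 0.084 in mRNA and -0.10 in RPFs, and the common sum moved it to -1.19 in RPFs and -1.03 in TE.

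The replicate numbers showed no sign of pairing: deviations of same-numbered HF and HB libraries correlated across genes at -0.10 in mRNA and -0.01 in RPFs. Between the mRNA and RPF libraries that share a number, which TE divides, the correlation was -0.002 in HF and -0.08 in HB. Such correlations do not settle which libraries share an animal. With the replicate number as a block, 1 member (Cyp4a32) rather than 0 was called lower in mRNA, 498 rather than 246 genes were called higher and 1229 rather than 701 lower. With the numbers crossed, the block called 1 member lower, and 474 genes higher and 1303 lower. Ribo-seq depth limits the RPF and TE values, with 4 to 7 reads for Cyp4a12a, Cyp4a12b and Cyp4a31 in HB2; with the 4 libraries per assay, the lone sample left in a group was assumed to vary like the other group.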
